A study of Mus musculus with 36 samples.

Results

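NM-203 at 2 µg/cm², the middle of 3 doses, was compared with water in Bhas 42 cells on 8 of the 36 arrays of the series: 4 arrays of treated cells and 4 labelled H2O, chosen by their sample titles. Bhas 42 cells descend from the mouse fibroblast line BALB/c 3T3 and carry the v-Ha-ras oncogene, so treated and control cells share 1 cell line and that oncogene, and the line is used to test whether an agent promotes transformation. NM-203 is a synthetic amorphous silica. Treatment began 4 days after the cells were seeded and lasted 48 h, up to harvest on day 6. The H2O arrays came from cells given 2% water for the same time. A second water group, labelled H2O (Min-U-Sil 5), was also given 2% water and has 4 arrays. NM-203 at 1 and at 5 µg/cm², with 4 arrays each, gave the neighbouring doses. Per its record the study ran 4 independent experiments. Which experiment an array came from is not labelled, and the p-values measure the spread between these arrays.

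Silica particles are taken up by cells into phagosomes and lysosomes, where they can disturb membranes, and both amorphous and crystalline forms are studied for inflammatory and promoting effects. Tumour promotion in Bhas 42 cultures is read as the outgrowth of foci from a contact-inhibited sheet. Genes of DNA replication and mitosis follow the fraction of cells in cycle, and interferon-stimulated genes follow signalling through STAT and IRF factors. In an extract of a whole culture, fewer cells of a type and less RNA per cell cannot be told apart.

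A level below is log2 of the intensity of a gene's probe minus log2 of the 75th percentile of its array, and a difference of 1 is a 2-fold change. Levels of different genes come from different probes and are not set against each other. Genes were called at a Benjamini-Hochberg adjusted p under 0.05 in limma, fitted over all 36 arrays and 32491 genes. The 4 NM-203 arrays correlated with each other at 0.9531 to 0.9871 over those genes, the 4 H2O arrays at 0.981 to 0.9905 and the second water group at 0.9709 to 0.9888. NM-203 replicate 2 had the lowest mean correlation with its group, 0.9548, and 380 outlier spots against 79 to 116 on the group's other arrays. All H2O arrays lay on slides 1 to 3, scanned on day 1, and all NM-203 2 µg/cm² arrays on slides 4 and 5, scanned on day 2, so in this pair scan day and treatment cannot be told apart. The second water group was scanned on day 2 too, on slides 4 and 5, and the results below are given against both water groups. NM-203 replicates 1, 3 and 4 lay on slide 5 with second water replicates 1 and 4, and NM-203 replicate 2 on slide 4 with second water replicates 2 and 3. Only NM-203 at 1 and at 5 µg/cm² had arrays on both days, with replicate 4 of the first and replicate 1 of the second on slide 5. Differences from H2O with slide or scan day as a block are tied across the days only through these 2 groups. A call kept or lost there does not separate treatment from slide or scan day.

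Against H2O, 8125 of the 32491 genes (25.0%) were called after 2 µg/cm² NM-203, 5248 higher (16.2%) and 2877 lower (8.85%). The median difference of all genes was 0.11 on the log2 scale, and 2046 of the called genes differed at least 2-fold. Against the second water group 5060 genes (15.6%) were called, 2500 higher (7.69%) and 2560 lower (7.88%), with a median of -0.18. The water groups also differed from each other, with 7946 genes called (24.5%), 6105 higher (18.8%) and 1841 lower (5.67%) in the second. Scaling each array on the median of the genes tested moved the median difference against the second water group from -0.18 to 0.12, and the split of its calls became 4719 higher and 672 lower. Against H2O that scaling gave 3016 higher and 2317 lower, and for the second water group over H2O 2219 higher and 4122 lower. Normexp correction with quantile normalization gave 2029 higher and 1301 lower against the second water group, and 4520 and 2901 between the waters. These counts drew on the spread of all 36 arrays. Fitted on the 8 arrays of each pair alone, 2914 genes were called against H2O and 15 against the second water group (5734 there at an unadjusted p under 0.05). Of the 5248 genes higher than in H2O, 4215 (80.3%) were also higher than in the second water group and 1666 were called there. Of the 2877 lower genes, 2533 (88.0%) kept their direction and 901 were called. Those 2567 genes called in the same direction against both waters (7.90%; 5.13% higher, 2.77% lower) share the NM-203 arrays in both comparisons, so the match of directions is a check of the control and not a second experiment. With median scaling those called against both were 1403 higher and 292 lower.

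The 10 named genes that rose most against both water groups were Car6, Avil, Dach2, Ifi213, Esco2, Akr1b7, Nek2, Fancd2, Prl2c5 and Efcab11, taken in order of the smaller of each gene's 2 differences. They cover a secreted enzyme, an actin-binding protein, a proliferin and genes of chromosome cohesion, the centrosome and DNA repair. Car6, a secreted carbonic anhydrase, read -1.17, -1.02, -1.09 and -1.99 on the 4 NM-203 arrays, -3.34, -3.41, -3.93 and -4.34 on the H2O arrays and -3.86, -3.52, -3.46 and -3.56 on the second water arrays. All 4 NM-203 arrays lay above all 8 water arrays, although replicate 4 was the lowest of its group. Its log2 difference was 2.44 against H2O (SE 0.21, adjusted p = 5.65e-09) and 2.28 against the second water group (adjusted p = 2.04e-07). Avil encodes advillin, an actin-binding protein of the villin family. Its levels were -0.503, -0.03, -0.14 and -0.77 with NM-203 and -2.29, -2.48, -2.76 and -2.79 with H2O. Those groups did not overlap, and the log2 difference was 2.22 (SE 0.22, adjusted p = 3.32e-08), beside 2.52 against the second water group.

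Dach2, a transcription cofactor of the dachshund family, was 1.99 (log2) above H2O and 2.03 above the second water group on its brightest probe. Its 5 tested probes ran from -0.85 to 1.99 against H2O, and their mean was not called (0.52, adjusted p = 0.207). Akr1b7, an aldo-keto reductase, rose by 1.86 and 1.74. Esco2 acetylates cohesin to hold sister chromatids together and rose by 1.80 and 1.76. Efcab11, which encodes an EF-hand protein, rose by 2.25 and 1.56. On the probes used for these 4 genes every NM-203 array lay above every array of both water groups. Neither Dach2 nor Efcab11 was measured well above background on every NM-203 and H2O array. Ifi213 belongs to the interferon-inducible Ifi200 family and was not well above background on any water array, while 2 of the 4 NM-203 arrays measured it. Its H2O levels were -7.78, -7.80, -7.92 and -5.73, and replicate 4 reached the lowest of the NM-203 levels of -5.44, -5.05, -5.08 and -5.74. The bound against background was at least 1.15-fold higher than H2O (measured log2 means -5.33 and -7.31, adjusted p = 0.000605), and with slide as a block its call was lost (adjusted p = 0.152). The Ifi200 genes are close in sequence, so this probe may read a neighbour.

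**Figure D1:**
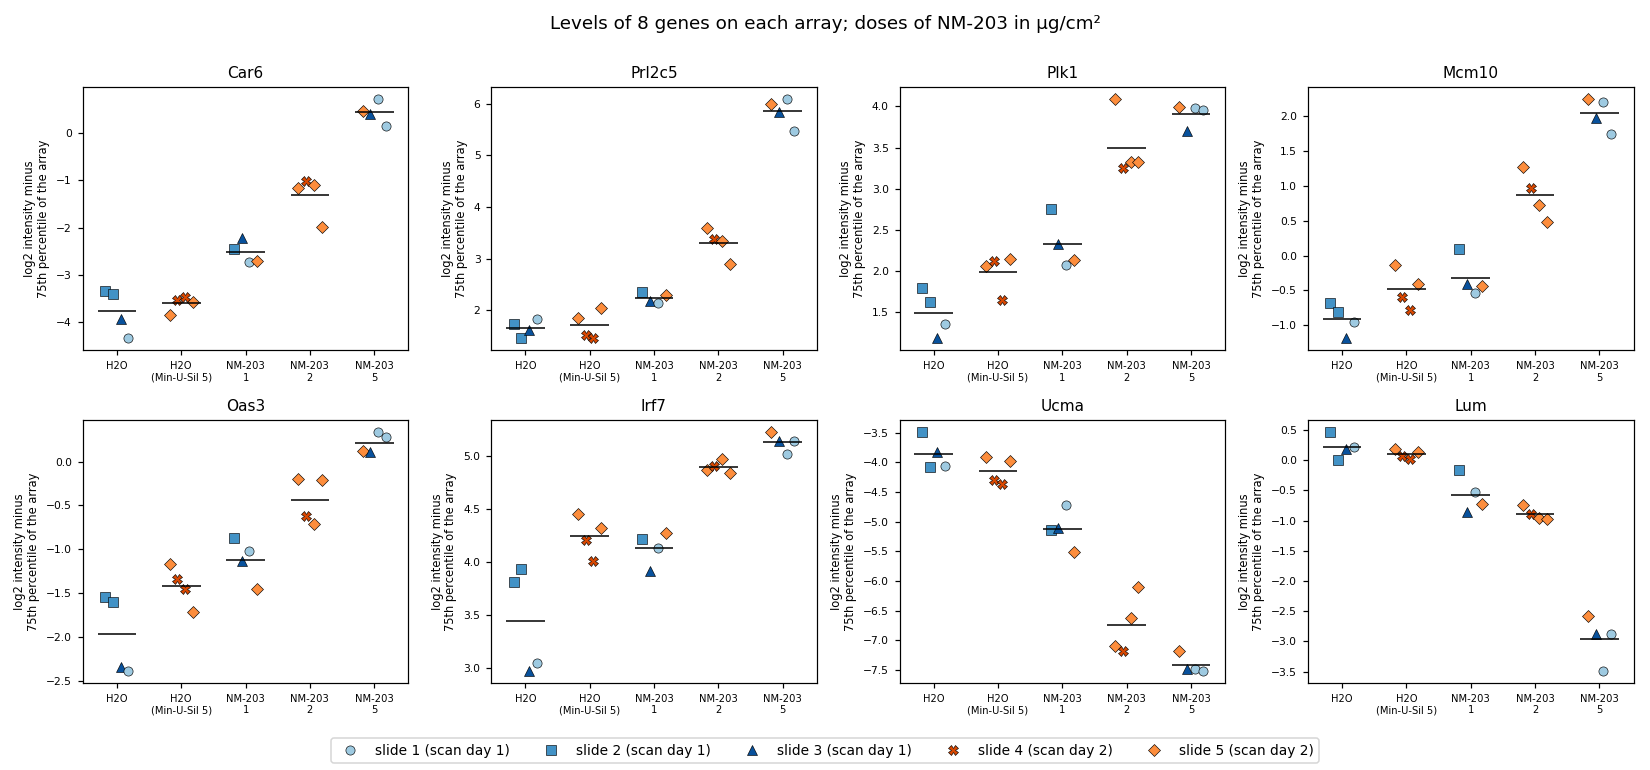
Levels of 8 genes (log2 intensity minus the 75th percentile of the array) on every array of the 2 water groups and the 3 NM-203 doses (1, 2 and 5 µg/cm²). Marker shape and colour give the slide and the horizontal bar the mean of 4 arrays. The 2 µg/cm² arrays lie above all 8 water arrays for Car6, Prl2c5, Plk1, Mcm10, Oas3 and Irf7 and below all 8 for Ucma and Lum.

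Of the 10 genes that fell most against both water groups, 9 are named here, namely Ucma, Ackr4, Rgs8, Mrgprf, Chadl, Slc15a2, Fam135b, S100a8 and Gdpd2. Ucma, a vitamin K-dependent protein of cartilage matrix, read -7.09, -7.18, -6.62 and -6.10 on the NM-203 arrays, -3.49, -4.07, -3.83 and -4.06 on the H2O arrays and -3.91, -4.31, -4.36 and -3.98 on the second water arrays. It was not well above background on any NM-203 array and was so on all 8 water arrays. As a bound it was at least 3.09-fold lower than in H2O (measured log2 means -6.75 and -3.87, adjusted p = 8.52e-09) and at least 2.55-fold lower than in the second water group.

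Ackr4, a scavenging chemokine receptor, was not well above background on any NM-203 array and was at least 1.30-fold lower than in H2O (measured log2 means -7.72 and -5.11, adjusted p = 2.2e-07). Rgs8, a regulator of G protein signalling, changed by -1.96 on the log2 scale against H2O and -1.68 against the second water group. That was on the brighter of its 2 tested probes, and the other differed from H2O by -0.075. Chadl, a chondroadherin-like matrix protein, was -1.91 and -1.67 from the waters on 1 probe and 0.72 above H2O on its other, and the mean of both was not called against H2O (adjusted p = 0.27). S100a8, a subunit of the calcium-binding protein calprotectin, changed by -1.61 and -1.60. Neither Rgs8 nor S100a8 was measured well above background on every NM-203 and H2O array. Gdpd2, a glycerophosphodiester phosphodiesterase, changed by -1.74 and -1.60. On the probes used for these last 4 genes all NM-203 arrays lay below all 8 water arrays, as they did in 2.05% of all genes, while 7.62% lay below the 4 H2O arrays. The remaining 3 were less even between arrays. Mrgprf, an orphan G protein-coupled receptor, read 0.55, -3.98, 0.20 and 0.24 with NM-203 and 1.16, 1.25, 1.38 and 1.33 with H2O. Without NM-203 replicate 2 its log2 difference went from -2.02 to -0.95 (adjusted p = 0.0229), and with slide as a block the call was lost (adjusted p = 0.511). Slc15a2, a peptide transporter, read -3.26, -6.27, -3.21 and -2.58 with NM-203 and -2.24, -1.90, -1.90 and -1.79 with H2O, and without that replicate it was no longer called (-1.06 log2, adjusted p = 0.0845). Its 3 probes ran from -1.87 to 0.79, and its call was also lost with slide as a block (adjusted p = 0.597) and when they were averaged (adjusted p = 0.388). Fam135b overlapped between the groups, at -1.86, -0.83, -0.36 and -1.40 against -0.40, 0.58, 1.12 and 0.78, and lost its call with slide as a block (adjusted p = 0.116).

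Genes of mitosis rose together. Of 88 genes in 4 lists (kinases and cyclins; kinetochore, centromere and checkpoint; kinesins, spindle and cytokinesis; chromosome condensation and exit), 83 were called higher than in H2O and none lower, with a median log2 difference of 1.60 beside 0.11 for all genes tested. Against the second water group 80 were higher and none lower, with a median of 1.19 beside -0.18. In 69 of the 88, all 4 NM-203 arrays lay above all 8 water arrays, as 4.22% of all genes did. In 77 they lay above the 4 H2O arrays, as 14.7% of all genes did. The second water group itself was above H2O in 27 of the 88, with a median of 0.39. With slide as a block 81 were called against H2O, among them 80 of the 83, and the medians of the 4 lists lay between 1.86 and 1.93. On slide 5 alone, 3 NM-203 arrays were set against 2 second water arrays, with the spread taken from all arrays of the series. That gave list medians of 0.95 to 1.16 and 44 genes called higher. On slide 4 alone, with 1 NM-203 array, the list medians were 1.34 to 1.36. In limma fits of the 8 arrays of a pair, 74 of the 88 were called against H2O and 0 against the second water group, where 79 had an unadjusted p under 0.05, all higher.

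Plk1, the polo-like kinase that drives mitotic entry, spindle assembly and exit, read 4.09, 3.25, 3.32 and 3.33 with NM-203, 1.79, 1.62, 1.19 and 1.36 with H2O and 2.06, 2.12, 1.65 and 2.15 with the second water. Replicate 1 was the highest NM-203 array, and no array of the group overlapped a water array. The log2 difference was 2.01 (SE 0.17, adjusted p = 4.18e-09), a 4.01-fold rise, and 1.501 against the second water group. Nek2, a kinase that separates centrosomes, read 0.27, -0.26, -0.38 and -0.64 with NM-203 and -2.04, -2.32, -2.58 and -2.29 with H2O, a log2 difference of 2.06 (SE 0.17, adjusted p = 2.45e-09). Aurkb, the kinase of the chromosomal passenger complex, read 1.69, 0.78, 0.79 and -0.05 with NM-203 and -1.04, -1.26, -1.504 and -1.52 with H2O. Its replicates spread by 0.71 (SD), yet all lay above the 8 water arrays, and the log2 difference was 2.13 (SE 0.22, adjusted p = 9.18e-08). Birc5, the survivin subunit of the same complex, rose by 1.95 (log2) against H2O and 1.34 against the second water group. Wee1, which holds mitosis back, differed by 0.39 from H2O and was not called there. Aurka, the kinase of the spindle poles, did not pass either, at 0.55 with levels of 3.89, -0.85, 3.08 and 2.85 against 2.06, 1.70, 1.49 and 1.52. On replicates 1, 3 and 4 Aurka lay above all 8 water arrays and on replicate 2 below all of them.

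At the kinetochore, the plate that ties chromosomes to the spindle, Ndc80 rose by 1.93 and 1.29 (log2, against H2O and the second water group) and the motor Cenpe by 1.91 and 0.88. Hjurp, the chaperone of the centromeric histone, and Ska3, a spindle-coupling protein, were the 2 of 25 that were not called against H2O, at 0.58 and 0.83. Spag5, the spindle protein astrin, read 0.86, 0.62, 0.06 and 0.62 with NM-203, -1.25, -1.37, -1.76 and -1.66 with H2O and -0.67, -0.95, -1.29 and -0.84 with the second water. Every NM-203 array was higher than every water array, and the log2 difference was 2.05 (SE 0.17, adjusted p = 2.45e-09). The 3 tested probes of Spag5 ran from 0.44 to 2.05 against H2O. Kif20b, a kinesin of cytokinesis, rose by 1.92 and 1.06, and Aspm, a spindle pole protein, by 1.92 and 1.21. Kif18b, a kinesin that acts on microtubule ends, was the 1 of 29 in that list not called against H2O. Its levels of 0.16, -4.35, -0.57 and -0.24 showed the pattern of Aurka, with replicate 2 below all 8 water arrays and the other replicates above them, and so did those of Ska3, at -0.72, -4.06, -1.30 and -1.80. Wee1, Aurka, Hjurp, Ska3 and Kif18b were singled out after their values were seen, because they did not pass. Among the condensation and exit genes all 14 were called higher against both waters. Examples were the condensin subunit Ncaph (1.95 and 1.29), securin, Pttg1 (1.93 and 1.20), and separase, Espl1 (1.83 and 1.33).

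Promoters of mitotic genes are known for a short element, the cell cycle genes homology region, whose core reads TTTGAA and was searched on both strands. Among 80 RefSeq windows (GRCm38.p6, 250 bases before to 50 after a start site) of 73 genes in these lists, 65.0% held it on either strand, against 17.8% of 32544 windows of all genes, and 49 of the 73 genes (67.1%) had at least 1 such window. A match describes letters and shows no binding. The windows of the 2 named mitotic genes that rose most among those holding the motif are shown, 5′ to 3′ on the gene's strand, with the motif in capitals. Spag5 lies at chr11:78301341-78301640 (plus strand) with its match at position 4 after the start site, and Plk1 at chr7:122159185-122159484 (plus strand) with its match at position 31.
Spag5: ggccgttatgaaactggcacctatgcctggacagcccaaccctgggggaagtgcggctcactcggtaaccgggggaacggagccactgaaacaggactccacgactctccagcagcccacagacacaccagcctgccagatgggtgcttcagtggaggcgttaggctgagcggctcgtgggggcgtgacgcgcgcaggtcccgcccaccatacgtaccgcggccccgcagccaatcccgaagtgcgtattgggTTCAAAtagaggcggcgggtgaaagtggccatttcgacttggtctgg
Plk1: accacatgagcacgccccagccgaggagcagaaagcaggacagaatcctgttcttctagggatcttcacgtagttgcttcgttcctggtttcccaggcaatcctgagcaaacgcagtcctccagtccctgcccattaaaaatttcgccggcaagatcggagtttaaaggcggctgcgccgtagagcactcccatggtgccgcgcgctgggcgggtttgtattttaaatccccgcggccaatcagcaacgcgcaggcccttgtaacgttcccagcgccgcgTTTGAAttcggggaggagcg

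**Figure D2:**
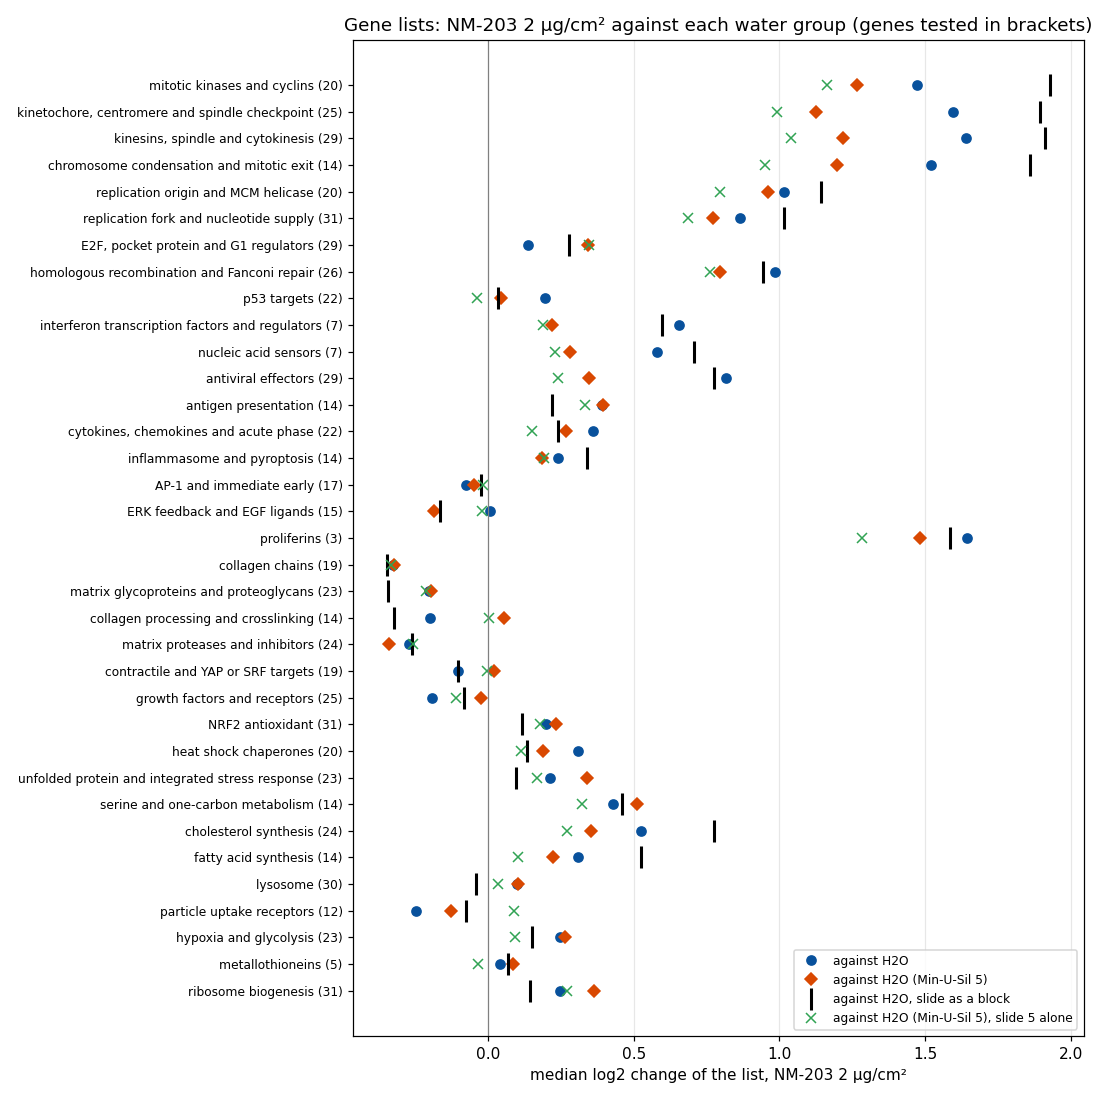
Median log2 difference of each of 35 gene lists (number of genes tested in brackets) for 2 µg/cm² NM-203 against H2O, against the second water group, against H2O with slide as a block, and against the second water group on slide 5 alone. The 4 mitotic lists and the proliferins lie farthest to the right in all 4 readings.

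Genes of DNA replication rose less far. Of 51 genes in 2 lists, 45 were called higher than in H2O and 41 higher than in the second water group, with none lower, and the medians were 0.93 and 0.79. All 6 subunits of the MCM helicase ring, which unwinds DNA at origins, were called against both waters, with log2 differences from H2O of 0.81 (Mcm2), 1.32 (Mcm3), 0.94 (Mcm4), 1.46 (Mcm5), 1.02 (Mcm6) and 0.71 (Mcm7). Mcm10, which helps activate that helicase, read 1.27, 0.97, 0.72 and 0.48 with NM-203, -0.68, -0.81, -1.19 and -0.95 with H2O and -0.13, -0.60, -0.78 and -0.40 with the second water. Its groups did not overlap, and it rose by 1.77 (SE 0.17, adjusted p = 2e-08) and 1.34. Ticrr, an origin-firing factor, rose by 2.04 and 1.34, and Orc1, of the origin recognition complex, by 1.80 and 1.19. Orc6 was the 1 of these 20 origin genes not called against H2O, at -0.16, and again replicate 2 stood alone, at 0.19 beside 2.41 to 3.00 on the group's other arrays. At the fork, Timeless, a replisome stabiliser, rose by 1.66 and 0.98, the polymerase subunit Pole by 1.48 and 1.08, and the flap nuclease Fen1 by 1.27 and 0.70. The other tested probes of Ticrr and Timeless differed from H2O by 0.56 and 0.38. With slide as a block 36 of those 45 were still called higher than H2O and with scan day as a block 32. On slide 5 alone, again with the spread of all arrays of the series, 4 genes were called, with list medians of 0.69 and 0.80. Slide 4 alone, with 1 NM-203 array, gave list medians of 0.996 and 1.24. In limma fits of the 8 arrays of a pair, 35 were called against H2O and 0 against the second water group, where 42 had an unadjusted p under 0.05, all higher.

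Homologous recombination and Fanconi genes, which repair broken or crosslinked DNA in S phase, rose in 19 of 26 against H2O and in 20 against the second water group, with medians of 0.99 and 0.80. Rad51ap1, which assists strand exchange in homologous recombination, read 1.46, 0.85, 0.80 and 0.64 with NM-203 and -0.68, -1.001, -1.30 and -1.18 with H2O. All NM-203 arrays were higher, by 1.97 on the log2 scale (SE 0.20, adjusted p = 7.03e-08). Fancd2, the protein that the Fanconi core complex ubiquitinates, rose by 1.87 and 1.58, and Fanca, of that core complex, by 1.84 and 1.04. The other tested probe of Fanca differed from H2O by 0.24. A smaller part of the regulators upstream of these genes rose. Of 29 E2F, pocket protein and G1 genes, 10 were higher and 2 lower than in H2O, and 11 higher and 1 lower than in the second water group. None was lower than H2O once slide or scan day was blocked. Of all genes tested 16.2% were higher and 8.85% lower than H2O, and 7.69% and 7.88% against the second water group. The lower counts of this list were below those shares. Foxm1, the factor that drives mitotic genes, rose by 1.57 and 1.06, Lin9, of the MuvB complex, by 1.45 and 0.84, and the activator E2f2 by 1.37 and 0.81. Cyclin D1 (Ccnd1) was called lower than H2O, at -0.42, and differed by 0.02 from the second water group. Cdkn2c, a CDK4 inhibitor, was called lower than H2O at -0.39 and differed by 0.34 from the second water group. Cdkn1c, another CDK inhibitor, was called lower than the second water group, at -1.33, and differed by -0.28 from H2O. These 3 were singled out after their values were seen.

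Proliferins are secreted relatives of prolactin made by growing fibroblasts, and all 3 tested (of 4 listed) rose. Prl2c5 read 3.58, 3.37, 3.34 and 2.90 with NM-203, 1.72, 1.45, 1.62 and 1.82 with H2O and 1.84, 1.52, 1.46 and 2.04 with the second water. The NM-203 arrays were all higher than the 8 water arrays, by 1.64 (SE 0.15, adjusted p = 2e-08) and 1.58 on the log2 scale. Prl2c3 read -1.06, -1.09, -1.24 and -1.98 with NM-203 and -3.13, -3.57, -3.15 and -2.80 with H2O, a rise of 1.82 (SE 0.20, adjusted p = 1.49e-07). Prl2c1 rose by 1.37 and 1.30. Proliferin copies are nearly identical in sequence, so a probe of 1 copy may read another, and the 3 are not independent measurements. None of the 3 was called between the water groups, and on slide 5 alone the list median was 1.28.

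Interferon-stimulated genes were also higher, and here the water groups differed as well. Of 43 genes in 3 lists (transcription factors and regulators, nucleic acid sensors, antiviral effectors; 47 listed), 38 were called higher than in H2O and none lower, with a median of 0.75. Against the second water group 19 were higher and none lower, with a median of 0.32. The second water group itself was higher than H2O in 21 of the 43, with a median of 0.41. H2O replicates 1 and 2, on slide 2, lay above replicates 3 and 4 in the median of the antiviral list, at 3.58 and 3.72 against 3.16 and 3.27. On slide 5 alone the list medians were 0.19 to 0.24. With the spread of all arrays of the series, 1 of the 43 genes was called there. On slide 4 alone, with 1 NM-203 array, the list medians were 0.32 to 0.60. Without second water replicate 3, 11 of the 43 were higher than that group instead of 19. Of the 38, 30 were still called higher than H2O with slide as a block and 24 with scan day as a block. In limma fits of the 8 arrays of a pair, 23 were called against H2O and 0 against the second water group, where 21 had an unadjusted p under 0.05, all higher. The part of slide and scan day in the difference from H2O was not tested beyond these values.

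Irf7, the transcription factor that amplifies type I interferon, read 4.87, 4.90, 4.97 and 4.84 with NM-203, 3.82, 3.94, 2.98 and 3.05 with H2O and 4.45, 4.21, 4.01 and 4.32 with the second water. The NM-203 arrays were close together and above all others, and the log2 difference was 1.45 against H2O (SE 0.16, adjusted p = 2.49e-07) and 0.65 against the second water group (adjusted p = 0.00725). Usp18, which dampens signalling from the interferon receptor, rose by 0.86 and 0.53. Socs1, a feedback inhibitor, was the 1 of 7 regulators not called, at -0.25. Zbp1, a sensor of Z-form nucleic acid, read 2.27, 2.17, 2.14 and 1.98 with NM-203, 1.12, 1.13, 0.27 and 0.31 with H2O and 1.21, 1.07, 1.05 and 1.21 with the second water. It stood above all 8 water arrays, by 1.43 (SE 0.18, adjusted p = 8.48e-07) and 1.01 on the log2 scale. Cgas, the cytosolic DNA sensor, rose by 0.95 and 0.54, and Dhx58, a regulator of RNA sensing, by 0.73 and 0.48. The other tested probe of Cgas differed from H2O by 0.11. The call of Dhx58 against H2O was lost with scan day as a block (adjusted p = 0.0669).

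Oas3, which makes the 2-5A messenger that activates RNase L, read -0.20, -0.62, -0.71 and -0.21 with NM-203, -1.54, -1.60, -2.35 and -2.39 with H2O and -1.17, -1.34, -1.45 and -1.72 with the second water. No NM-203 array overlapped a water array, and the log2 difference was 1.53 (SE 0.20, adjusted p = 2.38e-06) and 0.98. Oas1a, of the same family, rose by 1.27 and 0.67, although mouse Oas1 copies are close in sequence and its probe may read more than 1. Oasl1, an OAS-like protein, read -0.51, -0.61, -0.71 and -1.86 with NM-203 and -1.81, -1.99, -2.495 and -1.93 with the second water, so that NM-203 replicate 4 fell within that group's range. It was 1.83 (log2) above H2O and 1.13 above the second water group. Antigen presentation genes rose in 8 of 14 against H2O and 7 against the second water group, with none lower and medians of 0.39 and 0.40. Those higher than H2O were 3 with arrays scaled on the median, 5 with slide and 3 with scan day as a block, and on the median scale 11 were higher than the second water group. The water groups were nearer to each other there (median 0.03, 3 of 14 called). Psmb9 and Psmb10, subunits of the immunoproteasome, rose by 0.95 and 0.84 and by 0.99 and 0.40. The peptide transporter Tap1 rose by 0.79 and 0.41.

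Interferon-stimulated promoters carry a response element that can be described as 2 GAAA runs with 2 bases between them. It was found, on either strand, in 47.2% of 36 windows of 32 listed genes, against 3.4% of all 32544 windows, and 17 of the 32 genes (53.1%) had it. The windows of Oas3 and Oas1a are shown for the same reason as those above, with the match in capitals. Oas3 lies at chr5:120777610-120777909 (minus strand) and its match starts 75 bases before the start site. Oas1a lies at chr5:120907476-120907775 (minus strand), and its matches, which overlap, start 20 and 14 bases before it.
Oas3: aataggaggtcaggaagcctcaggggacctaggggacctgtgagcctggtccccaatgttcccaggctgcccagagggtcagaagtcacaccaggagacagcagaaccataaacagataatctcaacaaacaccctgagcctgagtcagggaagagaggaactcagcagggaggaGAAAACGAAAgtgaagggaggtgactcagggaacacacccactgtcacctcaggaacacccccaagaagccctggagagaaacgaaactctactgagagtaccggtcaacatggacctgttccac
Oas1a: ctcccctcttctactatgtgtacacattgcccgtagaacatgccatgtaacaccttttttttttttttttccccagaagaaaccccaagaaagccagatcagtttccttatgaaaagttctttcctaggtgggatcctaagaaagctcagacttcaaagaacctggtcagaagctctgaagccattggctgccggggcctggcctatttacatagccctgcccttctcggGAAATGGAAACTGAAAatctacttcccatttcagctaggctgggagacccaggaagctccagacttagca

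**Figure D3:**
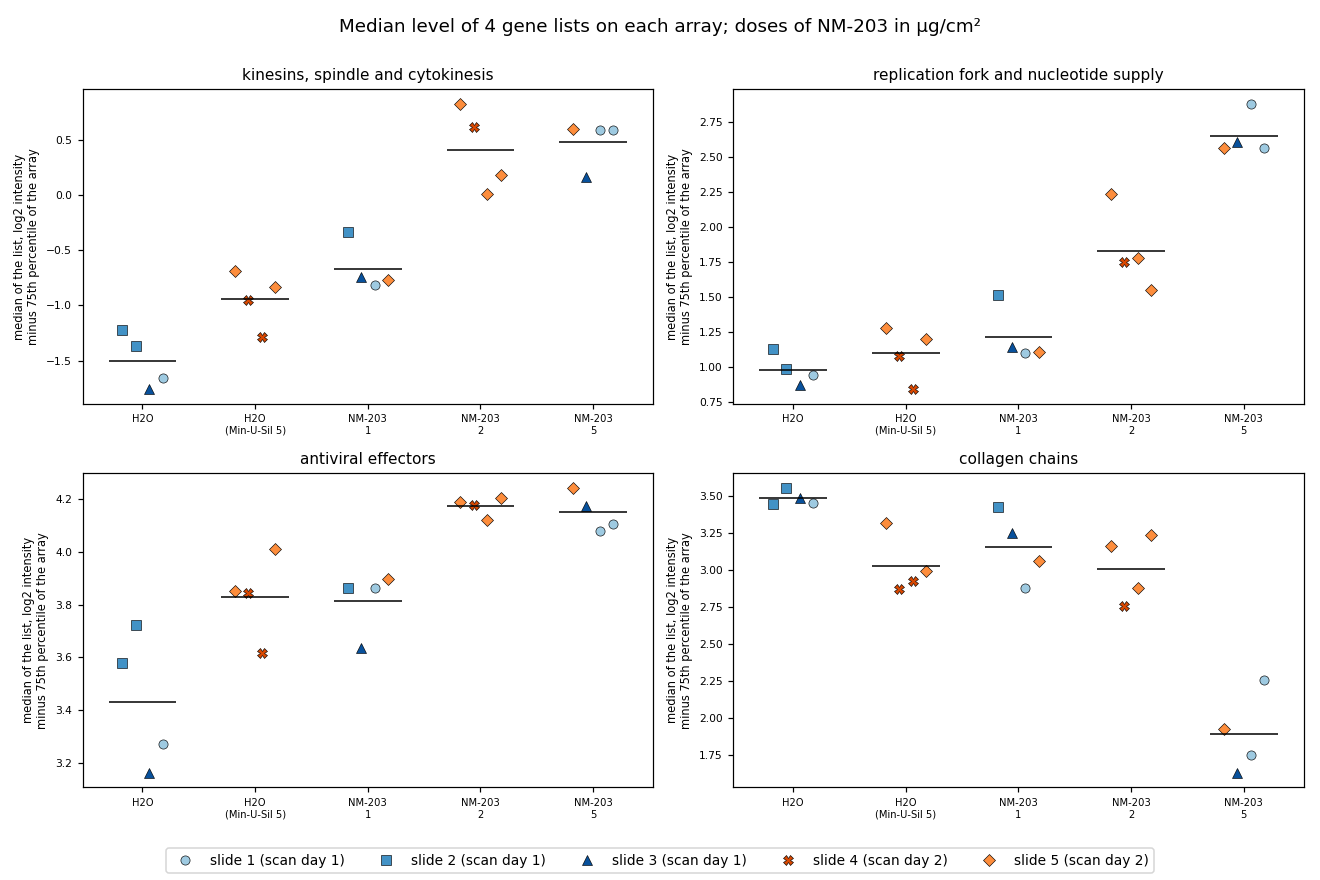
Median level of 4 gene lists on every array (log2 intensity minus the 75th percentile of the array), for both water groups and 3 doses of NM-203. Markers give the slide and the bar the mean of 4 arrays. For the kinesin list all 2 µg/cm² arrays lie above all 8 water arrays, and for the collagen chains they overlap the second water group and lie below H2O.

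Cytokine and acute phase genes gave 7 higher and 1 lower of 22 against H2O, and 5 higher against the second water group. Of all genes tested 16.2% were higher and 8.85% lower than H2O, and 7.69% higher and 7.88% lower than the second water group. Saa3, an acute phase apolipoprotein, read -2.43, -1.97, -1.65 and -1.80 with NM-203, -3.33, -4.25, -3.55 and -3.78 with H2O and -3.54, -3.35, -3.57 and -3.20 with the second water. All NM-203 arrays were higher, by 1.77 (SE 0.27, adjusted p = 2.05e-05) and 1.45 on the log2 scale. The chemokines Ccl8 and Cxcl10 were called against H2O, at 1.33 and 1.18, but not against the second water group, at 0.64 and 0.28 (adjusted p = 0.0981 and 0.507). Of 14 inflammasome and pyroptosis genes, 6 were higher and 3 lower than H2O, and 3 higher and 1 lower than the second water group. Casp1, the protease that matures interleukin 1 beta, was 1.31 (log2) above H2O and 0.63 above the second water group, with replicate 4 below the rest of its group. Nlrp2, a NOD-like receptor, rose by 1.38 and 1.06. Nlrp1b was 1.38 above H2O, where 1 of 4 arrays measured it above background, and 0.37 above the second water group (adjusted p = 0.485). With scan day as a block 2 cytokine and 3 inflammasome genes were higher than H2O and none lower, and with slide as a block 3 of each were. The calls of Cxcl10, Nlrp2 and Nlrp1b against H2O were lost with slide as a block (adjusted p = 0.0891, 0.0946 and 0.227).

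Genes of the extracellular matrix moved down in part. Among all genes tested 8.85% were lower than H2O and 7.88% lower than the second water group. Of 80 genes in 4 lists, 27 were lower and 4 higher than in H2O, with a median of -0.25, and 18 were lower and 3 higher than in the second water group, with a median of -0.23. When arrays were scaled on the median, the split against the second water group turned to 5 lower and 8 higher, while against H2O it was 23 lower and 1 higher. Against H2O 16 were lower and 1 higher with slide as a block, and 17 and 0 with scan day as a block. Lum, the proteoglycan lumican that spaces collagen fibrils, read -0.75, -0.89, -0.96 and -0.98 with NM-203, 0.47, 0.00, 0.18 and 0.23 with H2O and 0.19, 0.07, 0.02 and 0.14 with the second water. Its NM-203 arrays lay below all 8 water arrays, and the log2 difference was -1.12 (SE 0.17, adjusted p = 1.94e-05) and -1.001. Postn, periostin, read 1.81, 1.74, 2.10 and 1.98 with NM-203, 3.75, 3.95, 4.26 and 3.93 with H2O and 2.52, 2.81, 2.75 and 2.93 with the second water. The mean of the second water group lay between the other 2, and the log2 difference was -2.07 against H2O (SE 0.23, adjusted p = 2.29e-07) and -0.85 against it (adjusted p = 0.013). Fmod, fibromodulin, read 1.98, -2.46, 1.62 and 2.22 with NM-203 and 2.32, 2.39, 2.82 and 2.74 with H2O and was called there only through replicate 2. Without it the difference was -0.63 (adjusted p = 0.163).

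Collagen chains were lower than H2O in 9 of 19 (4 with slide and 5 with scan day as a block) and lower than the second water group in 5, and 3 chains (Col5a3, Col6a3 and Col16a1) were called lower against both. Col5a3 read 0.13, -0.22, -0.10 and 0.45 with NM-203 and 0.94, 1.02, 0.95 and 0.85 with H2O, and changed by -0.87 (SE 0.16, adjusted p = 0.000214) and -0.65. Col3a1, a major fibrillar chain, was -0.94 from H2O and -0.17 from the second water group (adjusted p = 0.441), whose arrays overlapped the NM-203 ones. Col14a1 was -0.90 and -0.43 in the same comparisons. Among proteases and inhibitors 7 of 24 were lower against each water, with 4 lower than H2O when slide was a block and 2 lower than the second water group when arrays were scaled on the median. Timp4, a metalloproteinase inhibitor, read -0.52, -0.55, 0.05 and -0.06 with NM-203, 0.82, 1.14, 1.44 and 1.27 with H2O and 1.29, 1.25, 1.22 and 1.41 with the second water. It lay below all 8 water arrays, with log2 differences of -1.44 (SE 0.26, adjusted p = 0.000123) and -1.56. The collagenase Mmp13 changed by -1.07 and -1.29, and the gelatinase Mmp9 by -1.23 and -0.78. Bmp1, which trims procollagen, was -0.55 and -0.70 from the waters, with its 3 probes running from -0.55 to 0.15 against H2O and their mean not called (adjusted p = 0.252), whereas the crosslinker Loxl1 (-0.94 and -0.19) and the prolyl hydroxylase subunit P4ha1 (-0.56 and 0.33) were called against H2O alone. The calls of Col3a1, Col14a1, Mmp9 and P4ha1 against H2O were lost with slide as a block (adjusted p = 0.218, 0.0956, 0.0647 and 0.126).

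Biosynthetic genes rose moderately. Their counts stand beside 16.2% of all genes higher and 8.85% lower than H2O, and 7.69% and 7.88% against the second water group. Of 14 serine and one-carbon genes, 8 were higher and 1 lower than H2O, and 10 higher and 1 lower than the second water group, with medians of 0.43 and 0.51 beside 0.11 and -0.18 for all genes tested. Psat1, a transaminase of serine synthesis, read 4.40, 3.97, 3.94 and 3.57 with NM-203, 3.19, 2.94, 2.86 and 2.94 with H2O and 2.97, 2.996, 2.80 and 3.18 with the second water. It was higher on every NM-203 array than on any water array, by 0.99 (SE 0.13, adjusted p = 3.67e-06) and 0.98 on the log2 scale. Those higher than H2O were 4 with slide and 3 with scan day as a block. Mtr, methionine synthase, was 0.92 and 0.88 above the waters on 1 probe and -0.76 from H2O on its other, and their mean was not called against H2O (adjusted p = 0.837). Mthfd1, a folate enzyme with the mean of its 2 probes not called (adjusted p = 0.0747), was called on its brighter probe at -1.11 against H2O and not called against the second water group (-0.69, adjusted p = 0.0844). Cholesterol synthesis genes were higher than H2O in 15 of 24 with none lower, and higher than the second water group in 3. Those counts were 4 and 10 with arrays scaled on the median, 11 and 2 with slide as a block and 4 and 3 with scan day as a block. Among these genes the isomerase Idi1 was 1.098 and 0.47 above the water groups, the prenyl synthase Fdps 0.94 and 0.67, and the sterol oxidase Msmo1 0.85 and 0.49. Only Fdps of these 3 was called against both, and Idi1 lost its call against H2O with scan day as a block (adjusted p = 0.0843). With slide as a block Mtr and Mthfd1 lost their calls against H2O (adjusted p = 0.0535 and 0.136).

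The stress lists moved less. Their counts stand beside 16.2% of all genes higher and 8.85% lower than H2O, and 7.69% and 7.88% against the second water group. Of 23 genes of the unfolded protein and integrated stress responses, 8 were higher than H2O and 9 higher than the second water group, with none lower. With slide as a block 2 were higher and 1 lower than H2O, and with scan day as a block 1 was higher. Trib3, a pseudokinase induced by ATF4, read 4.25, 4.76, 4.31 and 4.10 with NM-203, 3.55, 3.38, 3.23 and 3.53 with H2O and 3.58, 3.44, 3.23 and 3.38 with the second water. It rose on all 4 arrays, by 0.93 (SE 0.16, adjusted p = 8.2e-05) and 0.95 on the log2 scale. The stress hormones Fgf21 and Gdf15 were higher by 1.39 and 0.96 than in H2O. Fgf21 was not measured above background on any second water array and was at least 1.90-fold higher than there (measured log2 means -4.66 and -6.82, adjusted p = 0.000544). NRF2 antioxidant genes gave 8 higher and 4 lower of 31 against H2O, and 12 higher and 1 lower against the second water group. Against H2O slide as a block left 2 higher and 1 lower, and scan day as a block 1 higher and 2 lower. Malic enzyme, Me1, rose by 0.75 and 0.497. Txnrd1, thioredoxin reductase, read 1.72, 1.995, 2.08 and 1.51 with NM-203, 2.84, 2.77, 2.80 and 2.90 with H2O and 1.504, 1.80, 1.85 and 2.06 with the second water. It was called -1.001 (log2) against H2O, whereas NM-203 and the second water overlapped and differed by 0.03, and its other probe differed from H2O by 0.016. Trib3, Fgf21 and Gdf15 lost their calls against H2O with slide as a block (adjusted p = 0.0596, 0.406 and 0.0892).

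By the number of genes called against H2O, 2 µg/cm² lay between 1 and 5 µg/cm². The second water group alone differed from H2O in 7946 called genes. At 2 µg/cm² not every list lay between the other doses. At 1, 2 and 5 µg/cm² the median difference from H2O was 0.25, 0.52 and 0.18 for cholesterol synthesis. It was 0.30, 0.65 and 0.26 for interferon transcription factors and regulators. In these lists the second water group differed from H2O by medians of 0.21 and 0.32. NM-203 at 2 µg/cm² differed from that group by 0.35 and 0.22. At 1 µg/cm² 28 genes (0.0862%) were called against H2O, 14 higher and 14 lower (0.0431% each), and at 5 µg/cm² 10740 (33.1%). From 1 to 2 µg/cm² 4922 genes (15.1%) were called, 3581 higher (11.0%) and 1341 lower (4.13%), and from 2 to 5 µg/cm² 10628 (32.7%), 3788 higher (11.7%) and 6840 lower (21.1%). Scaling on the median turned these splits to 661 higher and 845 lower, and to 4029 and 3834. Normexp with quantile normalization gave 2503 higher and 1626 lower for the first step. These comparisons share the 2 µg/cm² arrays, all scanned on day 2, and at 1 and 5 µg/cm² 3 of 4 arrays were scanned on day 1. With scan day as a block 780 genes were called from 1 to 2 µg/cm² and 6554 from 2 to 5. Fitted on the 2 groups of each step alone, 5 and 5737 were called. In the 4 mitotic lists, 70 of 88 genes were higher at 2 than at 1 µg/cm² (median 0.87) and 39 were higher still at 5 µg/cm² (median 0.48). Ribosome biogenesis genes were higher than H2O in 12 of 31 at 2 µg/cm², with a median of 0.25. Those were 2 with arrays scaled on the median, 0 with slide as a block and 0 with scan day. Against the second water group 16 were higher and none lower, with a median of 0.36, and 27 were higher on the median scale. On slide 5 alone, with the spread of all arrays of the series, 0 were called higher than that group. From 2 to 5 µg/cm² 29 of 31 were higher, with a median of 1.22. Nop56, a nucleolar protein of rRNA modification, was 0.72 above H2O at 2 µg/cm² (not called with slide as a block, adjusted p = 0.0954) and 1.46 higher again at 5 µg/cm². Proliferins rose by a median of 1.06 from 1 to 2 µg/cm² and by 2.78 from 2 to 5 µg/cm².

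Car6 had mean levels of -2.52 ± 0.23 (SD, n = 4) at 1 µg/cm², -1.32 ± 0.45 at 2 and 0.44 ± 0.23 at 5, each step beyond the spread of the groups (1.21, adjusted p = 0.000347, and 1.75, adjusted p = 1.37e-07). Plk1 rose by 1.17 (adjusted p = 5.54e-05) from 1 to 2 µg/cm², and its further 0.41 to 5 µg/cm² was not called (adjusted p = 0.0642). Lum did not pass between 1 and 2 µg/cm² (-0.33, adjusted p = 0.212) and changed by -2.06 from 2 to 5 µg/cm². The matrix lists behaved likewise, with 12 of 80 genes lower at 2 than at 1 µg/cm² and 45 lower at 5 than at 2. Cholesterol synthesis genes had 3 higher of 24 from 1 to 2 µg/cm² and 10 lower, with none higher, from 2 to 5. Of all genes tested 11.0% were higher and 4.13% lower in the first of these steps, and 11.7% and 21.1% in the next. The cholesterol count for the first step lay near its share. Lysosomal genes were 9 higher and 1 lower of 30 than H2O at 2 µg/cm² (3 higher with slide and 2 with scan day as a block). Against the second water group 2 of the 30 were higher and none lower, and 18 were lower at 5 than at 2 µg/cm². All genes tested gave 16.2% higher and 8.85% lower than H2O, and 7.69% and 7.88% against the second water group.

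**Figure D4:**
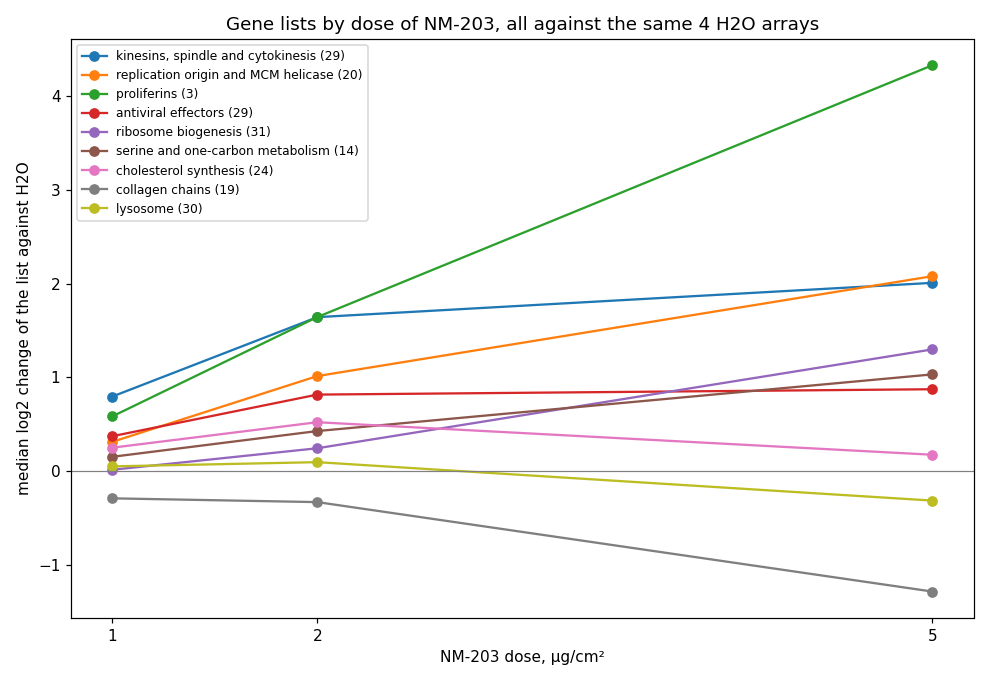
Median log2 difference from the same 4 H2O arrays of 9 gene lists (number of genes tested in brackets) at 1, 2 and 5 µg/cm² NM-203. At the middle dose the kinesin list and the proliferins both stand at 1.64, and at 5 µg/cm² the proliferins reach 4.32 while cholesterol synthesis has come down. The H2O arrays were scanned on day 1 and all 2 µg/cm² arrays on day 2.

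Some genes depended on which water was used. Called against both but in opposite directions were 25 genes (0.0769%). Ankrd16, an ankyrin repeat protein, read 1.37, 1.39, 1.59 and 1.30 with NM-203, 0.74, 0.95, 0.63 and 0.98 with H2O and 2.14, 1.79, 1.82 and 1.87 with the second water, so NM-203 lay between 2 groups of the same treatment and overlapped neither. Pa2g4, a nucleolar growth regulator, lay between them the other way, at 1.98, 2.05, 1.86 and 1.58 with NM-203, 2.39, 2.10, 2.36 and 2.38 with H2O and 1.20, 1.496, 1.49 and 1.55 with the second water. Abhd2, a lipase of the abhydrolase family, was -0.56 and 0.48 on the log2 scale from the 2 groups, and Qrich1 -0.43 and 0.31. Bmp6, a bone morphogenetic protein, was not well above background on any H2O array and was so on 1 NM-203 array, replicate 2, whose level of -3.40 stood beside -3.49 and -3.10 on the second water arrays of the same slide 4. Hkdc1, Mug1, Epha5 and Grk1 were likewise highest on the arrays of slide 4 in both groups. Grk1, a rhodopsin kinase, read -5.72, -3.04, -4.63 and -4.40 with NM-203 and -4.57, -2.97, -2.68 and -5.14 with the second water, the arrays of slide 4 (replicate 2 of the first and 2 and 3 of the second) being the highest in both groups. Against H2O, where no array measured it, Grk1 was at least 2.12-fold higher (measured log2 means -4.45 and -6.75, adjusted p = 0.00317), and against the second water group it was not called (-0.61). Hkdc1, a hexokinase-like protein, was at least 1.62-fold (measured means -4.84 and -7.28, adjusted p = 0.000647) and Mug1, a protease inhibitor, at least 1.56-fold higher than H2O (measured means -4.88 and -7.26, adjusted p = 0.00223; near-identical murinoglobulins may share its probe), and neither was called against the second water group (-0.41 and -0.06). With slide as a block Hkdc1, Mug1 and Epha5 were not called against H2O (adjusted p = 0.62, 0.0934 and 0.261), nor were Ankrd16, Pa2g4, Abhd2, Qrich1 and Bmp6 (adjusted p = 0.425, 0.112, 0.376, 0.68 and 0.869). With scan day as a block Grk1 lost its call too (adjusted p = 0.0742). When both waters were taken as 1 group with scan day as a block, the sign of the difference turned for Ankrd16, Pa2g4, Abhd2, Qrich1, Bmp6 and Hkdc1, as for P4ha1 above and Krt5 below.

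The labelled fibroblast identity was checked on 13 markers, all of them tested. Their median level lay between 4.46 and 4.74 on the H2O arrays, 4.54 and 4.75 on the second water arrays and 4.24 and 4.50 on the NM-203 arrays. With NM-203, 5 of the 13 were lower than H2O (3 with either slide or scan day blocked) and 1, Lum, was lower than the second water group, with none higher. Marker counts stand beside 16.2% of all genes higher and 8.85% lower than H2O, and 7.69% and 7.88% against the second water group. The count of 1 lay near its share. The median difference of the list from the second water group, -0.18, turned to 0.12 when arrays were scaled on the median. Prrx1, a mesenchymal transcription factor, was called lower than H2O, at -0.81 (adjusted p = 2.63e-08), and not against the second water group, at -0.18 (adjusted p = 0.108). Its difference from H2O was 0.145 (adjusted p = 0.671), of the opposite sign, when its tested probes were averaged. Fap, an activation marker, differed by -1.35 from H2O and -1.14 from the second water group, where it was not called (adjusted p = 0.083), the first losing its call with slide as a block (adjusted p = 0.516). Of 8 macrophage markers tested (11 listed), 2 were higher and 1 lower than H2O and none was called against the second water group. Their median level lay between -1.70 and -0.67 on the NM-203 arrays, -1.74 and -1.33 on the H2O arrays and -0.90 and -0.51 on the second water arrays. Ptprc, Fcgr1 and Tyrobp were too seldom above background to be tested. Of 4 epithelial markers, Krt5 and Krt14 were higher than H2O (1.42 and 0.56) and neither was called against the second water group, or against H2O with slide as a block (adjusted p = 0.654 and 0.264). Epcam, Cdh1 and Krt19 were too seldom above background to be tested. Of 4 endothelial markers, Cdh5 was lower than both (-1.95 and -1.49), and of 4 adipocyte markers none was called. The part of other cell types in the results was not tested.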

How the data were processed

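RNA of each culture was labelled with Cy3 and hybridised to 1-colour Agilent arrays (5 slides, 62976 spots each). Intensity values were extracted and background-corrected with Agilent Feature Extraction 11.0.1.1, per the file headers. Here log2 of that intensity was taken minus the array's 75th percentile over 59305 non-control spots. Outlier spots were left out, and no spot of these genes was saturated. Repeated spots were averaged, a probe entered the test if 3 or more of a group's 4 arrays had it well above background, and the brightest probe stood for its gene. Of 56605 probes 32994 carried a symbol, and 17869 of the 32491 genes tested had one. The authors' deposited log2 table was used as an alternative, and its scaling before centring is unknown. In the 12 columns of NM-203 2 µg/cm² and both waters it matched the scanner values centred per probe (r 0.999 to 1, column medians -0.25 to 0.27). For replicates 1, 2 and 3 of the Min-U-Sil 5 treatment, a group not compared here, r was 0.406, 0.68 and 0.424. Those columns were part of the fit on that table too.

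All 9 groups were fitted with limma 3.58.1 (R 4.3.3, lmFit and eBayes, tested on simulated data) with Benjamini-Hochberg adjustment. A bound ("at least N-fold") sets the measured group's mean against, per array, the higher of the dim probe's own level and the lowest level of a probe well above background. Same-numbered NM-203 and H2O arrays deviated together at r of -0.033 to 0.292, so the numbers were not taken to pair them. For 1 and 2 µg/cm² NM-203 r was 0.201, 0.192, 0.021 and 0.112 for replicates 1 to 4. There the same number was the best match except for replicate 3. These values do not settle whether the numbers mark experiments. The comparison and the gene lists were chosen with earlier results of these data known. Named were the 10 genes risen and 10 fallen most in both comparisons with water, the 3 of each list with the largest called change against H2O, and 5 each of opposite call and of opposite sign. Complete families, and members that did not pass, were named beside these after their values were seen, and 3 genes the rule picks are not reported here.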

Additional observations from a re-analysis of the deposited data

Results flagged for a closer look

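Among 408 sets of 4 arrays examined, 26 held an array far from the other 3, and chance alone picks out about 1 set in 20. Of the 26, 9 lay in each of NM-203 2 µg/cm² and H2O and 8 in the second water group.

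In the NM-203 group, replicate 2 was low for Mrgprf (-3.975, the nearest array at 0.204) and Fmod (-2.463, nearest 1.619), high for Pes1 (4.157, nearest 3.799), and had 380 outlier spots with the next array at 116. Replicate 4 was low for Car6 (-1.991), Casp1 (-2.577) and Oasl1 (-1.863) and high for Loxl1 (4.271). Replicate 1 was high for Plk1 (4.086, nearest 3.325).

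In the H2O group, replicate 3 was high for Abhd2 (-2.192), Bmp6 (-6.816, not well above background), Itgam (4.479) and Prrx1 (5.297) and low for Tyro3 (1.166). Replicate 4 was high for Ifi213 (-5.732, nearest -7.78) and Nlrp1b (-5.026), and replicate 2 low for Nlrp2 (-4.78) and Pa2g4 (2.097).

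In the second water group, replicate 1 was high for Akr1b7 (-3.724), Cryab (4.606) and Lamp1 (7.396) and low for Fmod (0.596) and Pa2g4 (1.202). Replicate 2 was low for Nlrp2 (-4.592), replicate 3 low for Tap1 (2.506), and replicate 4 high for Col3a1 (5.369). All these values are log2 levels relative to the array's 75th percentile.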

How the results depend on the processing

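Called counts are given in the order NM-203 2 µg/cm² against H2O, against the second water group, and called the same way against both. A change of at least 2-fold left 2046, 1103 and 430. Scaling on the median gave 5333 against H2O and 1695 for both, and normexp 3330 against the second water group. Fits on 2 groups alone gave 2914, 15 and 15. Slide as a block gave 2325 against H2O and 1185 for both, and scan day as a block 1716 and 1030. Array weights gave 8971 against the second water group, and both waters as 1 group with scan day as a block 5024 against H2O. Slide 5 alone gave 321 against the second water group, with the spread taken from all arrays of the series. The second water group against H2O fell to 78 with slide and 81 with scan day as a block, and gave 3026 at 2-fold, 3108 with 2 groups alone, 5156 with slide as a random block and 15748 with array weights. NM-203 2 against 1 µg/cm² gave 755 at 2-fold, 1506 on the median scale, 5 with 2 groups alone, 1405 with slide and 780 with scan day as a block. NM-203 5 against 2 µg/cm² gave 2918 at 2-fold, 5737 with 2 groups alone and 6554 with scan day as a block. The cause of these changes was not tested. Fits on 2 groups have fewer residual degrees of freedom than the fit over all arrays. Those against H2O and against the second water group used equally many arrays and gave 2914 and 15 calls. The parts of degrees of freedom and of the spread between arrays in these counts were not tested.

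Leaving out 1 array gave 6754 to 8176 calls against H2O, 2539 to 7369 against the second water group, 1525 to 3367 for both, 4468 to 9449 between the waters, 3445 to 5271 for 2 against 1 µg/cm² and 8791 to 10638 for 5 against 2. Against the second water group, its replicate 3 (2539) and NM-203 replicate 1 (2798) gave the fewest, and so for both (1576 and 1525). Between the waters, H2O replicate 1 (4468) and second water replicates 2 (4559) and 3 (4632) did. The replicate block gave 8066 calls against H2O and, since the numbers were not shown to pair the arrays, is given only here.

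Of 135 named genes called against H2O, 83 kept call and direction with slide and 77 with scan day as a block, 97 with 2 groups alone and 135 in the authors' table. Only 112 of them were well above background on all arrays of NM-203 2 µg/cm² and H2O, and all 112 kept their calls. Dach2, Efcab11, Rgs8, S100a8, Slc15a2, Mertk, Fap and Cdh5 were among the rest. Of 56 named genes with several tested probes, 11 had probes of opposite sign against H2O. Others kept the sign but differed in size. For example, the probe not used differed from H2O by 0.15 for Me1, 0.20 for Nop56 and 0.32 for Psat1. Signs turned for Pes1 (-0.062), Prrx1 (0.145) and Tnfrsf10b (-0.20) when all probes of a gene were averaged. With both waters as 1 group and scan day as a block they turned for Abhd2 (0.296), Adgre1 (-0.471), Aif1 (-0.185), Ankrd16 (-0.335), Bmp6 (-1.17), Hkdc1 (-0.09), Krt5 (-0.007), P4ha1 (0.135), Pa2g4 (0.254) and Qrich1 (0.199). The cause was not tested. With 4 arrays a group, their number limits the precision, and probes not above background give only a bound.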

Other observations

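Several lists moved little at 2 µg/cm². All list counts in this section stand beside 16.2% of all genes higher and 8.85% lower than H2O. Against the second water group those shares were 7.69% and 7.88%. Of 22 p53 target genes tested, 4 were higher and 1 lower than H2O and 1 higher than the second water group, with medians of 0.20 and 0.04, the latter turning to -0.007 with normexp and quantile normalization and 0.34 on the median scale. Those higher than H2O were 1 with slide and 0 with scan day as a block. Gadd45a, a DNA damage response gene, was 0.61 and 0.51 (log2) above the 2 water groups, and the call against H2O was lost with slide as a block (adjusted p = 0.0534). Rrm2b, a p53-induced ribonucleotide reductase subunit, was -0.72 from H2O and -0.24 from the second water group (adjusted p = 0.207). Of 17 AP-1 and immediate early genes, Jun alone was called against H2O, at -0.44, and it differed by 0.00 from the second water group, above which 3 of the others were called. The call of Jun was lost with scan day as a block (adjusted p = 0.0567) and on the median scale (adjusted p = 0.0787). Of 15 ERK feedback and EGF ligand genes, 1 was higher and 2 lower than H2O. The EGF receptor ligand Ereg was 0.57 and 0.48 above the waters, called against both, and lost its call against H2O with scan day as a block (adjusted p = 0.0615) or arrays scaled on the median (adjusted p = 0.0669).

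Heat shock chaperones were higher than H2O in 10 of 20 and higher than the second water group in 6. The 10 became 2 with arrays scaled on the median, 3 with slide as a block and 0 with scan day as a block. Hspa1a, an inducible HSP70, was not well above background on any H2O array and was at least 1.35-fold higher with NM-203 (adjusted p = 0.00567), but its difference from the second water group was 0.21 (adjusted p = 0.792), and the call against H2O was lost with slide as a block (adjusted p = 0.406) and with scan day as a block (adjusted p = 0.371). Growth factors and receptors gave 4 higher and 6 lower of 25 against H2O, and 2 higher and 1 lower against the second water group. With slide as a block 0 were higher and 1 lower than H2O. Igf2 was -0.82 and -0.21 from the waters and called against H2O alone, a call lost with scan day as a block (adjusted p = 0.124). Of 19 contractile and YAP or SRF target genes, 2 were higher and 4 lower than H2O (0 and 2 with slide as a block), and Cnn1, calponin, was called lower against both waters, at -0.89 and -1.04.

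Genes of the compartments that take up particles were divided. Scarb2, a lysosomal membrane receptor, read 2.08, 2.19, 1.98 and 2.26 with NM-203, 1.40, 1.43, 1.26 and 1.12 with H2O and 1.48, 1.33, 1.25 and 1.61 with the second water. Its log2 difference was 0.83 (SE 0.09, adjusted p = 1.02e-07) and 0.71. Sqstm1, the autophagy receptor p62, was 1.03 and 0.60 above the waters, its call against H2O lost with scan day as a block (adjusted p = 0.065). Mertk, a receptor for the uptake of dying cells, changed by -1.13 and -0.92, and the call against H2O was lost with slide as a block (adjusted p = 0.146). Of 23 hypoxia and glycolysis genes, 7 were higher and 2 lower than H2O and 8 higher than the second water group. The 7 became 2 with slide or scan day as a block or arrays scaled on the median. Pgk1, a glycolytic kinase, was 0.84 and 0.45 above the waters. Of 5 metallothionein and zinc response genes, Mt2 alone was called against H2O, at 0.27, and none against the second water group. Mt2 was not called against H2O with slide as a block (adjusted p = 0.418) or scaled on the median (adjusted p = 0.29).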
